A study of Homo sapiens with 12 samples.

Results

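SYCP1 and DAZL are genes of the germline, and they were described here by the H3K9me3 peaks that the authors assigned to them in 293T cells with and without SMARCA3. H3K9me3 is trimethylation of lysine 9 on histone H3. The rule took every peak that carries either gene name in the wild-type (WT) list or the knockout (KO) list, of the promoter and gene-body classes, together with the peaks within 200 kb. It found 22 of 112068 peaks: 14 at SYCP1 (5 WT and 9 KO) and 8 at DAZL (2 WT and 6 KO). A further 26 peaks lay around the genes.

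The study compared 293T cells, a line from human embryonic kidney that carries the SV40 large T antigen, with 293T cells labelled SMARCA3_KO. SMARCA3, now named HLTF, encodes a chromatin remodeler of the SNF2 family that also carries a ubiquitin ligase domain. The series holds 3 libraries precipitated with an anti-H3K9me3 antibody and 3 input libraries for each genotype, and the labels describe no other treatment. Whether the knockout cells are a single clone is not given in the sources used here. Each genotype has 1 peak list, with 46898 WT and 65170 KO peaks, so no difference has a replicate check, no p-value was computed between genotypes, and the depth of each library is unknown. The signal is pooled over cells, and fewer cells with the mark cannot be told apart from less mark per cell. Expression is not measured by these lists, and so neither the knockout nor the identity of the cells could be checked by marker genes.

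Germline genes work in meiosis and gamete formation and are silent in most somatic cells. SYCP1 encodes the transverse filament of the synaptonemal complex, the structure that holds paired chromosomes together in meiosis, and it is also known as a cancer-testis antigen. DAZL encodes an RNA-binding protein that controls translation in germ cells. In somatic cells, promoters of this kind are commonly held silent by DNA methylation and by a Polycomb complex that contains E2F6, MGA and MAX, and at some of them by SETDB1, an enzyme that places H3K9me3.

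The promoter windows of both genes are shown because no H3K9me3 peak of either list lay on them. They come from RefSeq (GRCh38.p14), run from 250 bases before to 50 bases after an annotated start, and are written 5′ to 3′ on the strand of the gene. Capitals mark a match, on either strand, to TTCCCGC, a core sequence bound by E2F6, or to CACGTG, the E-box bound by MAX and its partners. The SYCP1 window lies at chr1:114854613-114854912 on the plus strand, and the DAZL windows lie at chr3:16605374-16605673 and chr3:16604741-16605040 on the minus strand.
SYCP1 start at 114854863: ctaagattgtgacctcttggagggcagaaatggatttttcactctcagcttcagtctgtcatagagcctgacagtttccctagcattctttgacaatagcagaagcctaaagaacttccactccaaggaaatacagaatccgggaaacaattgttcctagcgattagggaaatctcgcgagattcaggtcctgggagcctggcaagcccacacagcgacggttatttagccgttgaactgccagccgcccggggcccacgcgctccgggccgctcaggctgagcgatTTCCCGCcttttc
DAZL start at 16605423: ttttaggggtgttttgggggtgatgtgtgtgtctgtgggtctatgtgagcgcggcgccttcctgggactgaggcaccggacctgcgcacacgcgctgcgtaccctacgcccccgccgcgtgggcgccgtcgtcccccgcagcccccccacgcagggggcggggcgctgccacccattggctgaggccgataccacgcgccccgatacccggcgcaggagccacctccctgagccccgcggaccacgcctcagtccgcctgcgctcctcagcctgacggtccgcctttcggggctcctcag
DAZL start at 16604790: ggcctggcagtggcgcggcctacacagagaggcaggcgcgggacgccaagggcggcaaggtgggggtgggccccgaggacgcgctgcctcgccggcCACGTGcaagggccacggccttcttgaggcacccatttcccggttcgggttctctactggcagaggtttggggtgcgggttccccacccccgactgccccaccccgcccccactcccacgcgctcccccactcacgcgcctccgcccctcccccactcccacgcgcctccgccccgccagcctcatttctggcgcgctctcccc
The SYCP1 window holds 15 CpG pairs and 1 match to TTCCCGC, 37 bases after the start. The DAZL windows hold 33 and 29 CpG pairs, and the second has 1 match to CACGTG, ahead of its start. For comparison, the median window of a protein-coding gene holds 21 CpG pairs. TTCCCGC is found in 8.13% and CACGTG in 8.34% of 22198 such windows. A match describes the letters only.

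All 22 peaks at SYCP1 and DAZL were of the gene-body class, and none was of a promoter class, which cover the 3 kb before and after the start of a transcript. No WT or KO peak came within 3 kb of any of the RefSeq starts of the genes or of the starts of the transcripts used in the lists. Upstream of the SYCP1 start the nearest peak ended at a distance of 28403 bp in WT and 28314 bp in KO, and downstream the nearest began 49380 and 48462 bp away. The absence of promoter peaks is common among marked genes. Of the protein-coding genes with a WT peak, 76.3% had none of the promoter classes, and of those with a KO peak, 71%. Over the 15842 protein-coding genes with a RefSeq promoter window at hand, 3.18% carried a WT peak and 5.02% a KO peak within 3 kb of a start.

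SYCP1 (ENSG00000198765) lies on the plus strand of chromosome 1 from 114854088 to 114995370 (hg38), and its peaks fell into 5 patches, counting as a patch the peaks within 5 kb of each other. The first patch began 48.5 kb into the gene and held its strongest peak in KO and a peak of the joint highest fold in WT. There WT had a single peak of 1486 bp at 114904243 to 114905728, with a fold enrichment of 5.11 and a q-value of 6.41e-12. KO had a peak of 1479 bp in the same place, at 114904194 to 114905672, with a fold of 5.98 and a q-value of 1.09e-21, and 1430 bp of the peaks overlapped. Fold enrichment is the authors' value for a peak over its background, and the q-value is their adjusted p of the peak within its own list. This pair stood high in both lists, where 92.2% of the WT peaks and 97.1% of the KO peaks had a fold as low or lower. KO added 3 peaks at the flanks, of 738, 279 and 347 bp with folds of 3.97, 3.30 and 3.26. They began or ended 180, 151 and 512 bp from the WT peak. The patch thus held 1486 bases in WT and 2843 in KO.

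The fourth patch, 113 kb into SYCP1, had the same form of a shared core with extra KO flanks. WT had a peak of 501 bp (114968225 to 114968725, fold 4.48), and it lay whole within a KO peak of 811 bp (114968041 to 114968851, fold 3.49). Their q-values were 3.14e-09 in WT and 1.93e-08 in KO. KO added a peak of 575 bp on one side and of 356 bp on the other, with folds of 3.21 and 2.45. Peak bases were 501 in WT and 1742 in KO.

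The last patch, near the 3′ end of SYCP1, did not hold more in KO. WT had a peak of 361 bp (114987297 to 114987657, fold 2.74) and one of 953 bp (114988136 to 114989088, fold 5.11), which together made 1314 bases. KO had 1 peak of 1234 bp (114988120 to 114989353) that enclosed the wider WT peak, with a fold of 3.24 and a q-value of 6.77e-09. The fold of the wider WT peak and its q-value, 6.41e-12, were the same as those of the WT peak in the first patch. Both fold and q-value thus placed the WT peak above the KO peak here, as at the core of the fourth patch. The first patch was the reverse, but folds of separate lists are not on a shared scale.

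The remaining patches were single narrow peaks present in 1 list each. A WT peak of 298 bp (114928768 to 114929065) had a fold of 3.22 and a q-value of 4.48e-04, and a KO peak of 271 bp (114947062 to 114947332) had a fold of 3.54 and a q-value of 8.91e-08. They lay 17996 bp apart, and neither had a peak of the other list nearer by.

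Summed over SYCP1, WT had 5 peaks over 3599 bases. KO had 9 peaks over 6090 bases, 1.69 times as many bases. That is close to the ratio of 1.59 for all peaks of the lists and above the 1.32 of chromosome 1. Among 3888 protein-coding genes with peaks in both lists, 77.9% had more KO than WT peak bases, the median ratio was 1.39, and 33.9% had a ratio as high as that of SYCP1 or higher. By the number of peaks, the ratio of KO to WT was 1.8 at SYCP1, and 24.1% of these genes reached it. With peaks within 1 kb merged in each list, SYCP1 had 4 WT and 4 KO peaks, and KO minus WT bases were 3272. The KO share of the SYCP1 peaks was 64.3%, beside 58.2% of the whole lists. The peaks lay in 5 patches and are not independent counts, so this difference was not tested. Of the 9 KO peaks, 6 met no WT peak, where 49.4% of all KO peaks met none, and of the 5 WT peaks, 2 met no KO peak, where 20.1% of all WT peaks met none. All but 1 of the 9 KO peaks lay within 1 kb of a WT peak. The KO peaks without a WT partner were narrower than the KO peaks with one, at 271 to 738 bp against 811 to 1479 bp. Neither the count within 1 kb nor these widths have a value over all KO peaks beside them, so neither is shown to be particular to SYCP1. The excess of KO bases depended on how peaks were filtered. With both lists limited to a fold of at least 3.69, their pooled median, SYCP1 had 3 WT peaks over 2940 bases and 2 KO peaks over 2217 bases, while 66.3% of genes still had more KO bases. That limit leaves out the KO peaks of 811 and 1234 bp, which met WT peaks. With both limited to the smaller q-values, up to the pooled median, SYCP1 had 3 WT peaks over 2940 bases and 5 KO peaks over 4533 bases, and 80.4% of genes had more KO bases.

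**Figure D1:**
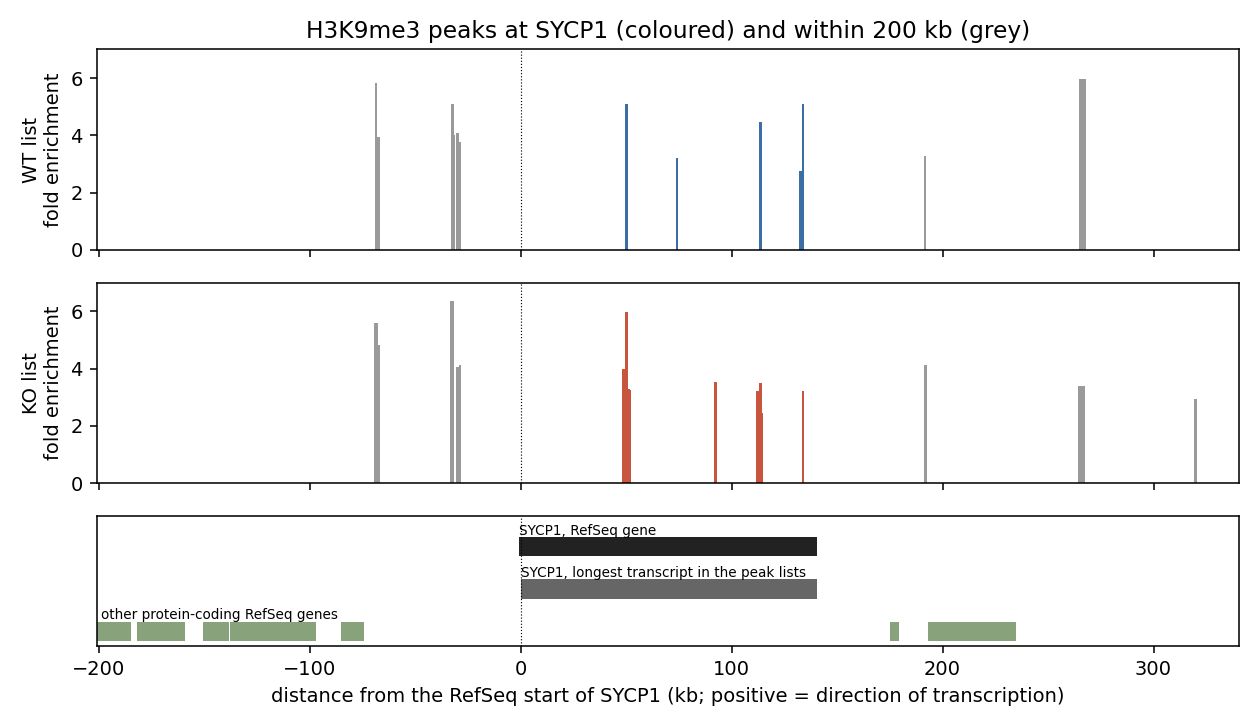
H3K9me3 peaks at SYCP1 (coloured) and within 200 kb (grey) in the WT list (top) and the KO list (middle), with gene models below. The horizontal axis is the distance from the RefSeq start in kb, bar height is the authors' fold enrichment, and peaks narrower than 1.2 kb are drawn 1.2 kb wide. No bar stands at the start site, the shared peaks line up between the lists, and the neighbouring protein-coding genes carry none.

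The annotation lists 14 other genes within 200 kb, 7 of them protein-coding, and none had a WT or KO peak inside it or assigned to it. Genes without a peak are the majority, since 20.7% of protein-coding genes carried a WT peak and 23.5% a KO peak. They include AMPD1, which encodes the AMP deaminase of muscle, and TSHB, which encodes the beta subunit of thyrotropin. SIKE1, TSPAN2 and DENND2C were likewise without a peak. The 8 WT and 8 KO peaks around SYCP1 were all intergenic, as were many peaks of the lists, of which 48.6% in WT and 48.9% in KO have no named gene. All 8 WT peaks met a KO peak and 7 of the 8 KO peaks met a WT peak. The widest was a peak beyond TSPAN2, of 3442 bp in WT (115119503 to 115122944, fold 5.96) and 3633 bp in KO (115118943 to 115122575, fold 3.41). On the other side the cluster of peaks nearest to the start of SYCP1 held 4 WT peaks, with folds of 3.77 to 5.11. In KO it held 3 peaks, with folds of 4.05 to 6.37. Peak bases around SYCP1 were 7876 in WT. They were 11086 in KO, 1.41 times as many. Per kb, SYCP1 carried 25.5 peak bases in WT and 43.1 in KO, and the 200 kb on both sides of it carried 19.7 and 27.7.

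DAZL (ENSG00000092345) lies on the minus strand of chromosome 3, and none of its peaks lay inside the gene as RefSeq annotates it, from 16586792 to 16605423. All 8 were assigned through the transcript ENST00000454457, which the lists place from 16596750 to 16670306 and which therefore begins far upstream of the RefSeq starts. Seen from the outer RefSeq start, the peaks lay 9.71 to 56.6 kb upstream. Such a case is uncommon. Of the protein-coding genes with a WT peak, 4.57% had all their assigned peaks farther than 3 kb outside the RefSeq gene, and of those with a KO peak, 4.56%. Over the RefSeq gene of DAZL and 3 kb on either side, both lists had 0 peaks. By this measure 22.7% of protein-coding genes carried a WT peak and 26% a KO peak.

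The peak of DAZL nearest to the gene was weak in both lists. In WT it spanned 603 bp (16615601 to 16616203) with a fold of 2.36 and a q-value of 0.00597, and only 1.51% of the WT peaks had a fold as low or lower. It lay whole within a KO peak of 1210 bp (16615136 to 16616345) with a fold of 2.19 and a q-value of 1.98e-04, where the share was 1.36%. KO added peaks of 271 and 336 bp 193 and 621 bp beyond the WT peak, with folds of 2.42 and 3.01.

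The strongest DAZL peak of either list lay about 18.9 kb upstream of the outer start. In WT it spanned 381 bp (16624355 to 16624735) with a fold of 3.77, and in KO 534 bp (16624381 to 16624914) with a fold of 3.90. The q-values were 3.29e-06 in WT and 1.24e-08 in KO. The peak had a smaller q-value in KO at a like fold, but these values come from separate lists and are not on a shared scale. KO also had peaks of 533 bp (16629315 to 16629847, fold 3.51) and 524 bp (16661509 to 16662032, fold 2.90), 4579 and 36773 bp from the nearest WT peak.

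Summed over DAZL, WT had 2 peaks over 984 bases and KO had 6 peaks over 3408 bases, 3.46 times as many bases. Of the genes with peaks in both lists, 7.18% had a ratio as high or higher in bases, and 8.26% had as high a ratio in the number of peaks, and on chromosome 3 the ratio over all peaks was 1.58. The KO share of the DAZL peaks was 75%, beside 58.2% of the whole lists. These peaks lay in 3 patches and are likewise not independent counts. Both WT peaks met a KO peak, and 4 of the 6 KO peaks met no WT peak, where 20.1% of all WT and 49.4% of all KO peaks met none. When the KO list was shortened to the 46898 peaks of lowest q-value, DAZL had 3 KO peaks over 1403 bases against 984 in WT, and SYCP1 had 7 over 5387 against 3599. In that setting 69% of genes had more KO bases. At DAZL each list had 1 peak of at least the pooled median fold, of 381 bp in WT and 534 bp in KO.

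**Figure D2:**
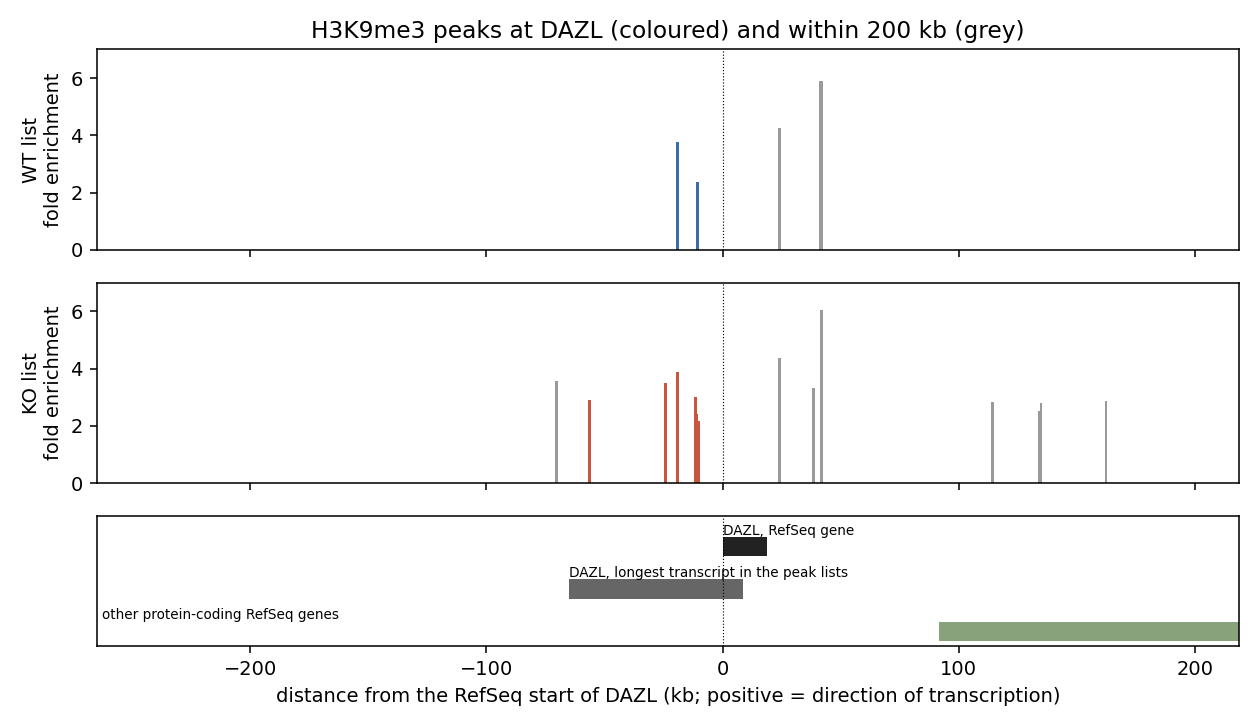
H3K9me3 peaks assigned to DAZL (coloured) and within 200 kb (grey) in the WT list (top) and the KO list (middle), with gene models below. The horizontal axis is the distance in kb from the outer RefSeq start in the direction of transcription, bar height is the authors' fold enrichment, and peaks narrower than 1.2 kb are drawn 1.2 kb wide. The coloured bars lie from 9.71 to 56.6 kb upstream of the start, within the long transcript of the lists and outside the RefSeq gene.

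Around DAZL the peaks present in both lists lay on the 3′ side of the gene. The strongest peak of the region was intergenic, of 1686 bp in WT (16562787 to 16564472, fold 5.90) and 1359 bp in KO (16562899 to 16564257, fold 6.06). A second intergenic peak lay close to the 3′ end of DAZL, of 326 bp in WT (16581301 to 16581626, fold 4.24) and 601 bp in KO (16581111 to 16581711, fold 4.36). These were the only 2 WT peaks there, while KO had 8. Of the 7 annotated genes in the window, RFTN1, which encodes a protein of membrane lipid rafts, had 4 KO peaks inside the window with folds of 2.53 to 2.88 and no WT peak there, and the noncoding LOC124906220 within it overlapped 1 of them. The RFTN1 peaks of KO at 16470427 to 16470847 and at 16471102 to 16471539 were of a promoter class. Over the whole of RFTN1, 1 WT and 5 KO peaks were assigned. The other 5 annotated genes had no peak in either list. On the upstream side, beyond the long transcript, WT had no peak within 200 kb and KO had 1, of 448 bp (16675733 to 16676180, fold 3.59). Peak bases around DAZL were 2012 in WT. They were 5042 in KO, 2.51 times as many. Per kb, the span of DAZL, RefSeq gene and long transcript together, carried 11.8 peak bases in WT and 40.8 in KO, and the 200 kb on both sides of it carried 5.03 and 12.6.

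**Figure D3:**
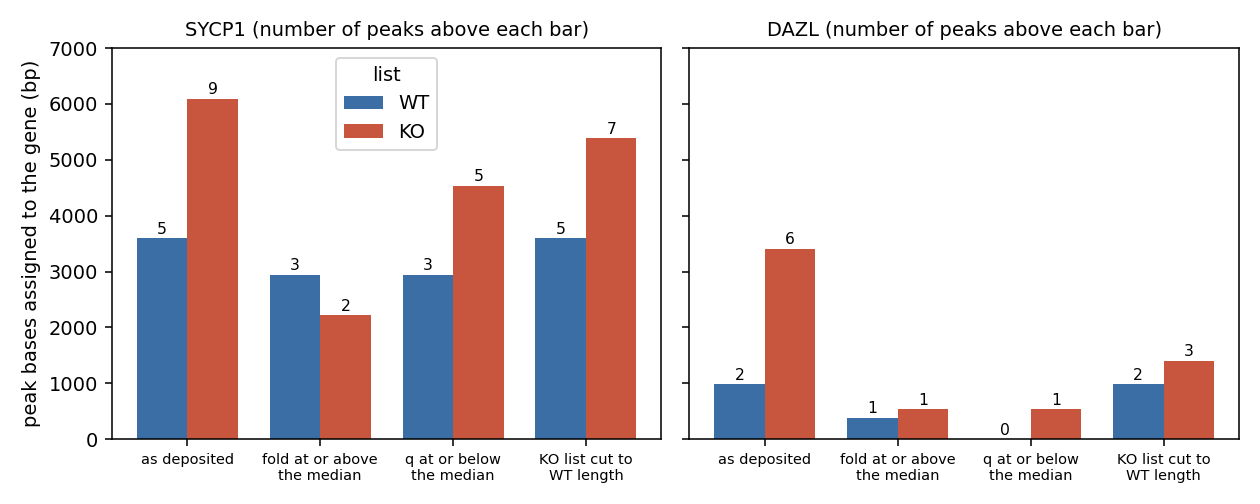
Peak bases assigned to SYCP1 (left) and DAZL (right) in the WT and KO lists, as deposited and under 3 thresholds, with the number of peaks above each bar. KO exceeds WT as deposited at both genes, and above the fold threshold SYCP1 has 2940 bases in WT and 2217 in KO.

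Other germline genes were set beside SYCP1 and DAZL from a list of 73 genes of meiosis and of germline RNA control that includes both. Of the other 71, 25 carried a WT peak (35.2%, 25.1 to 46.8) and 26 a KO peak (36.6%, 26.4 to 48.2). With SYCP1 and DAZL, which were chosen as genes with peaks, the counts were 27 and 28 of 73. Over all protein-coding genes the shares were 20.7% and 23.5%. The listed genes were longer, with a median of 46633 bp against 24130 bp. Within the range of their middle lengths, 20508 to 81591 bp, which holds neither SYCP1 nor DAZL, 14 of 37 listed genes had a peak in WT and 14 in KO (37.8%, 24.1 to 53.9, in each). In the same range the shares were 19.6% and 22.8% of 6789 protein-coding genes. Of the 18 listed genes above that range, which include SYCP1, 12 had a WT and 13 a KO peak. No share of all genes of such length stands beside these counts, so they show no excess. Below the range, DAZL, of 18632 bp in RefSeq, was the only listed gene with a peak in either list. No share of all short genes stands beside this either. Among the other 71 genes, 25 had peaks in both lists, of which 20 had more KO bases and 5 fewer, with a median ratio of 1.44. This share of 80% stands beside the 77.9% of all genes, and the median ratio beside 1.39. PIWIL2, which encodes a PIWI protein of the piRNA pathway, had 0 WT and 2 KO peaks, and the remaining 45 genes had none in either list.

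Among the 41 meiosis genes, 15 had peaks in both lists and 26 in neither. HORMAD2, which encodes a protein of the unsynapsed chromosome axis, had 5 WT and 10 KO peaks over 5857 and 10726 bases. MSH4, which encodes a mismatch repair homologue that stabilises crossover intermediates, had 9 and 12 peaks over 4646 and 8480 bases. MEIKIN, the gene of a meiotic kinetochore factor, had 14 peaks in each list over 8457 and 11782 bases. TEX11 on chromosome X had 12 and 13 peaks over 9934 and 11882 bases. HFM1, a gene of a meiotic helicase, had 7 peaks in each list over 5229 and 6378 bases. SYCP2L, related to the lateral element gene SYCP2, had 2 and 5 peaks, the meiotic cohesin gene SMC1B had 4 and 5, and SHOC1 had 4 and 6. RNF212, which acts in crossover formation, had 2 and 3 peaks over 581 and 2162 bases. DMC1, which encodes the meiotic recombinase, and MND1, which encodes a partner of it, had fewer but wider peaks in KO, with 3 and 2 peaks over 1718 and 2776 bases and 2 and 1 over 1452 and 1919. Fewer bases in KO were found at C14orf39, a synaptonemal complex gene (3320 in WT and 2592 in KO), at the cohesin gene RAD21L1 (1225 and 911) and at PRDM9 (568 and 389), whose product sets recombination hotspots. PRDM9, like DAZL, had all its assigned peaks outside the RefSeq gene and its 3 kb flanks, and these were the only members of which that held. At C14orf39, 1 of 4 WT and 1 of 6 KO peaks lay within those limits, and at RAD21L1 1 of 2 in each list.

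Among the 32 genes of germline RNA control, 12 carried WT peaks and 13 carried KO peaks. BOLL, an autosomal relative of DAZL, had 3 and 4 peaks over 1235 and 3341 bases, a ratio of 2.71. The Tudor domain genes TDRD5, TDRD9 and TDRD12 had 7 and 9, 3 and 4, and 1 and 3 peaks, with ratios of bases of 1.44, 2.49 and 5.23. TDRD7 had 2 and 1 peaks, over 766 bases in WT and 560 in KO. Of the other PIWI genes, PIWIL4 had 3 and 4 peaks over 2094 and 2777 bases, and PIWIL3 had 4 and 2 over 1968 and 1854. MAEL and MOV10L1, which encode factors of the piRNA pathway, had 2 and 1 and 3 and 1 peaks, over 1864 and 2681 and 1330 and 1895 bases. ASZ1 had 2 and 3 peaks and YTHDC2, a gene of a meiotic RNA helicase, 1 in each. Ordered by the ratio of bases among the 27 genes with peaks in both lists, DAZL stood behind TDRD12 and RNF212, and no replicate spread is at hand to tell such neighbours apart.

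Of 63 listed genes with a RefSeq promoter window at hand, the WT list marked 2 and the KO list 3 within 3 kb of the start. That is near the share of all protein-coding genes with a window, 3.18% and 5.02%. The marked genes were TDRD7 and YTHDC2 in both lists and MOV10L1 in KO. PIWIL2, PIWIL3 and PIWIL4, which had peaks, are among the listed genes without a window and were left out. Of the 35 meiosis genes with a window, 0 had a peak within 3 kb of the start in WT or in KO (upper Wilson bound 9.89%). By the authors' classes, 7 listed genes had a promoter peak in each list, of 27 with a WT and 28 with a KO peak. In each list 4 of them were meiosis genes, namely SYCP2L, HORMAD2, HFM1 and RNF212, so the measures differ. MOV10L1, marked near its start in KO, had no KO peak of a promoter class. Over all protein-coding genes with a peak, 76.3% in WT and 71% in KO had none of the promoter classes. The promoter windows of the listed genes held TTCCCGC in 25% and CACGTG in 15.5% of 84 windows, beside 8.13% and 8.34% of all windows. These 84 windows belong to 63 genes and held a median of 26 CpG pairs, against 21 in all windows. Both sequences contain a CpG pair, and the shares were not adjusted for this.

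**Figure D4:**
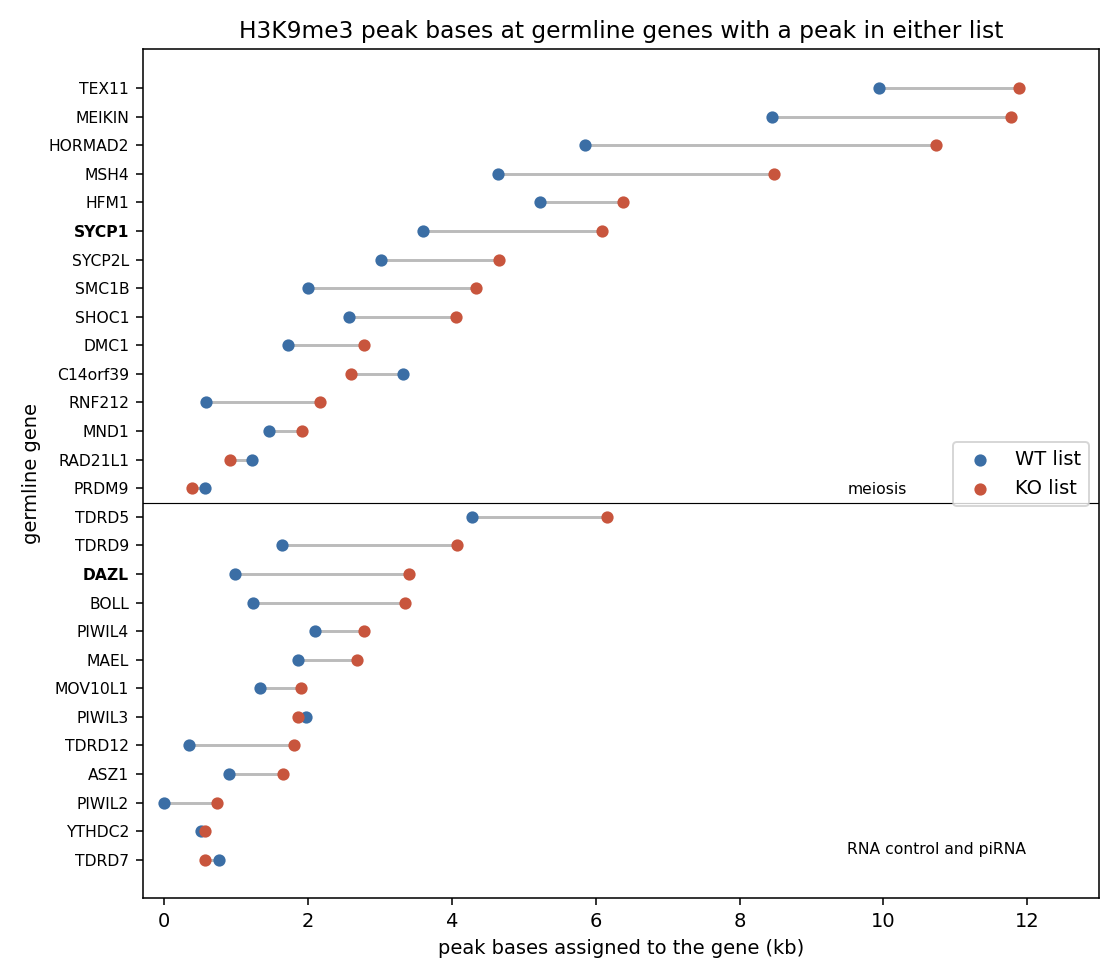
Peak bases in kb assigned to each germline gene with a peak in either list, in WT and KO, with meiosis genes above the line and genes of RNA control and the piRNA pathway below it. SYCP1 and DAZL are in bold, and 22 of the 27 genes with peaks in both lists have the KO point to the right of the WT point.

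The genes most like SYCP1 and DAZL were sought among 3886 protein-coding genes by the distance between log2 peak bases per kb of gene in WT and in KO, with the length taken from the transcripts of the lists. With 1 value per list this likeness rests on 2 values a gene. SYCP1, with 25.7 bases per kb in WT and 43.4 in KO on that length, was nearest to NEK10 on chromosome 3 (25.5 and 43.8), AKAP19 (26.5 and 43.0) and ZNF264 (26.6 and 43.0). DAZL, with 13.4 and 46.3, was nearest to ADAD1 on chromosome 4 (13.1 and 46.9), ZNF25 (14.5 and 46.6) and RNF212 (13.5 and 50.3).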

How the data were processed

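H3K9me3 ChIP-seq was done on 6 ChIP and 6 input libraries of 293T cells, per the labels. The submitters' processing notes name HISAT2 and hg38. How peaks were called, with which tool, and how inputs and replicates entered is not given in the sources used here. Each deposited list gives a fold per peak (a ratio over background, per the file headers) and a q-value, read as the authors' adjusted p of the peak within its list. Folds and q-values served to describe, rank or filter peaks. The fold and q limits were pooled medians applied to both lists, although folds of separate lists are not on a shared scale. Where values of the lists stand side by side, the comparison is descriptive.

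Peaks were assigned by the authors' gene column, and positions were read as counted from 1. Peaks were shared where they met by at least 1 bp. Neighbourhoods were the 200 kb on either side of the union of the RefSeq gene (GRCh38.p14) and its transcripts in the lists, with bases outside the window left out. File names of genes were matched to RefSeq symbols and synonyms, and 73 of 74 names in the germline list matched. Intervals are Wilson 95% intervals and cover counting only. The planned test between libraries was not run, because the files hold no values per library. Interval code was tested on simulated data (Python 3.11.15, pandas 2.3.3, scipy 1.17.1).

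The named genes are SYCP1 and DAZL, genes within 200 kb with a peak, germline genes with a peak, and the 3 genes most like each. Some neighbours without a peak are also named, chosen after their values were seen. The members and lists were chosen with earlier results of these data known. Alternatives covered fold and q thresholds, list length, gene assignment, merging, overlap and window width.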

Additional observations from a re-analysis of the deposited data

How the results depend on the processing

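Of 52 recomputed values, 23 stayed within 1.5 times the reported value, 26 moved farther and 3 changed sign, all 3 with both lists limited to peaks of at least their pooled median fold. In that setting KO minus WT bases were -723 at SYCP1, -684 around SYCP1 and -52 around DAZL, and 153 at DAZL. SYCP1 then had 3 WT and 2 KO peaks, and DAZL 1 in each list. With q-values up to the pooled median, a limit that keeps more of the KO list, KO minus WT was 1593 at SYCP1, 534 at DAZL, 5113 around SYCP1 and 1073 around DAZL. There SYCP1 had 3 WT and 5 KO peaks, and DAZL 0 and 1. With the KO list shortened to the WT length, KO minus WT was 419 at DAZL, with 3 KO peaks, and 1521 around it. Over the RefSeq gene and its flanks DAZL had 0 peaks in either list and a difference of 0. Merging peaks within 1 kb left 4 WT and 4 KO peaks at SYCP1, and 2 WT and 4 KO peaks at DAZL. Counting KO peaks within 1 kb of a WT peak gave 8 at SYCP1 and 4 at DAZL, and requiring at least 50% of both peaks to overlap gave 1 at DAZL. The difference was 5819 around SYCP1 with 500 kb on either side, and 1862 and 7637 around DAZL with 100 and 500 kb. The counts of germline genes with a peak stayed within 1.5 times in every setting run. No paired analysis was possible because the files hold 1 peak list per genotype and no values per library, and for the same reason no replicate could be left out.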
